A study of Homo sapiens with 2 samples.

Results

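The tripartite motif (TRIM) family of ubiquitin ligases was measured in HSC-1, an established line of human cutaneous squamous cell carcinoma, that received either a control siRNA (siNC) or an siRNA targeting LINP1, a long noncoding RNA (siLINP1). Members were the protein-coding genes of the count table whose symbol is TRIM followed by digits and at most 1 further letter, which gave 72 of 44591 genes. Of these 72 genes, 49 had at least 10 reads summed over both libraries and are named here, 13 had 1 to 9 reads and 10 had 0 reads in both libraries, so that at most 0.159 reads per 1000000 in siNC and 0.195 in siLINP1 are allowed by a count of 0. Both cultures were transfected at about 70% confluency, kept without serum for 6 h and then in medium with 10% serum for 24 h before total RNA was taken. There was 1 library per condition, so differences lack any check against replicates, no p-value was computed, and the intervals cover counting error only. Changes are log2 fold changes of siLINP1 over siNC after scaling by size factors (median of ratios), and levels between genes are compared as RPKM, the reads divided by the gene length and by the counted reads of the library.

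TRIM proteins carry a RING finger, B-box zinc fingers and a coiled coil in front of a C-terminal domain that differs between subfamilies. The RING finger recruits the ubiquitin-conjugating enzyme, the coiled coil joins monomers into dimers, and the C-terminal domain commonly recognises the target. Several members with a SPRY domain act in innate immunity, where they ubiquitinate sensors and adaptors of viral nucleic acid or bind viral capsids, and many of these are themselves induced by interferon. Other members act in chromatin silencing, in muscle, or on microtubules.

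The siNC library held 18829544 counted reads and the siLINP1 library 15383081. For LINP1, the siRNA target, 167 reads were counted in siNC but 23 in siLINP1. Of 12 marker genes of squamous keratinocytes, 5 (KRT5, TP63, DSG3, DSC3 and CDH1) were under 1 RPKM in both libraries and 3 (PERP, ITGB4 and LAMB3) were at 10 RPKM or more, and their summed level was 112.0 RPKM in siNC and 99.9 in siLINP1. The 6 mesenchymal markers summed to 2060 RPKM in siNC and 1690 in siLINP1, of which VIM alone had 1519 and 1278 RPKM. TRIM29, a member without a RING finger that is known from basal keratinocytes, had 42 reads in siNC and 24 in siLINP1. Of these markers the whole interval lay past 1.5-fold for KRT14 (243 and 87 reads) and COL1A1 (190 and 79 reads), both lower in siLINP1. Among protein-coding genes with at least 10 reads, 4.13% were higher and 2.34% lower by this measure. The squamous markers were thus mixed. KRT5 and TP63 were under 1 RPKM in both cultures, while ITGB4 had 51.4 RPKM in siNC and 41.6 in siLINP1 and KRT14 had 7.89 and 3.46. The part of these levels in the values given here was not tested. In bulk RNA, fewer cells of a type and less RNA per cell cannot be told apart.

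Interferon-induced genes commonly carry the interferon-stimulated response element, whose core GAAANNGAAA was searched on both strands of promoter windows from 250 bases before to 50 bases after each RefSeq start site (GRCh38.p14). The core was found for 6 of the 8 interferon-linked SPRY genes with a promoter in this table and for 4 of the 48 other members with one. Over all genes of the table, 4.38% had a match in at least 1 window. The group was chosen for its link to interferon, so its larger share is no independent result and was not tested. The windows around the match are shown for the 5 interferon-linked members among them with at least 10 reads. The match is in capitals, and the windows are written 5′ to 3′ on the strand of the gene.
TRIM26 (chr6:30213578-30213607, minus strand): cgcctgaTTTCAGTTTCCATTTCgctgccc
TRIM34 (chr11:5624901-5624930, plus strand): gccccaaaaaTTTCACTTTCatttctcagg
TRIM5 (chr11:5685082-5685111, minus strand): atagtttatcTTTCACTTTCctgccctgag
TRIM14 (chr9:98119229-98119258, minus strand): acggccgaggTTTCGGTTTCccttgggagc
TRIM21 (chr11:4393663-4393692, minus strand): ctgagcgGAAACTGAAAGTGAAAtagggag

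Promoter coordinates are of GRCh38.p14, while gene positions given elsewhere are of hg19. The match lay upstream of the start site in TRIM26, TRIM34, TRIM5 and TRIM14 and downstream of it in TRIM21. TRIM26 and TRIM21 each held 2 overlapping matches. TRIM25 and TRIM38 had promoters in the table with no match, and TRIM22 had no promoter there. The 250 bases before the start site are shown for the members of the group whose reads differed most in either direction, again with the match in capitals. TRIM34 has more than 1 promoter in the table, and the match lay in 1 of them.
TRIM26 (chr6:30213407-30213656, minus strand): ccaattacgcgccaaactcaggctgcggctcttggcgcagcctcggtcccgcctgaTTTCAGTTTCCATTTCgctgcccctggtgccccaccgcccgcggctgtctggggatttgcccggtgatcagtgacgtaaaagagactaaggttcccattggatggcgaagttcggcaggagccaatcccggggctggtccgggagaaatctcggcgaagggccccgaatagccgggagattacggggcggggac
TRIM34 (chr11:5624751-5625000, plus strand): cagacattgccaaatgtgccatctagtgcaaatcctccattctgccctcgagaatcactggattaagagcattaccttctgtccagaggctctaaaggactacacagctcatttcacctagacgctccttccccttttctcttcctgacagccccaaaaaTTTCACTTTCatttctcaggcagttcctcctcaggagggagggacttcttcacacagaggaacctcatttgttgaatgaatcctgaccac

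Across the family, most members differed little between the libraries. Of the 49 genes, 39 lay within 1.5-fold, the fold criterion of the study, while 4 (TRIM67, TRIM36, TRIM54 and TRIM26) lay above it and 6 (TRIM74, TRIM34, TRIM31, TRIM17, TRIM52 and TRIM29) below it. Among all 19840 genes with at least 10 reads, 14.4% lay above and 13% below, and among protein-coding genes 10.9% and 10.5%, so the shares of the family, 8.16% and 12.2%, were near the background. The whole 95% interval lay past 1.5-fold for 1 higher member, TRIM67, and 1 lower member, TRIM34, beside 3.98% and 2.06% of all genes and 4.13% and 2.34% of protein-coding genes. The interval left out no change for 12 higher and 15 lower members, beside 23% and 25.6% of all genes and 26.3% and 31.2% of protein-coding genes. The median log2 fold change of the 49 genes was -0.05, beside -0.02 for all genes and -0.04 for protein-coding genes. Scaling by the total count turned this median to 0.03, while all genes then had a median of 0.06.

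The depth behind these values differed widely. The 49 genes had a median of 898 reads in sum, from 12 reads for TRIM54 to 17565 for TRIM28. The interval lay wholly within 1.5-fold for 28 of them. The nearest genes outside the minimum, TRIM61 and TRIM64B, had 5 reads each, and the nearest inside, TRIM54 and TRIM31, had 12 and 13. Among the 43 members with at least 100 reads, 2 lay above 1.5-fold and 3 below it, beside 8.13% and 6.65% of protein-coding genes of that depth. The quartiles of all 49 fold changes lay between -0.31 and 0.21 on the log2 scale.

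**Figure D1:**
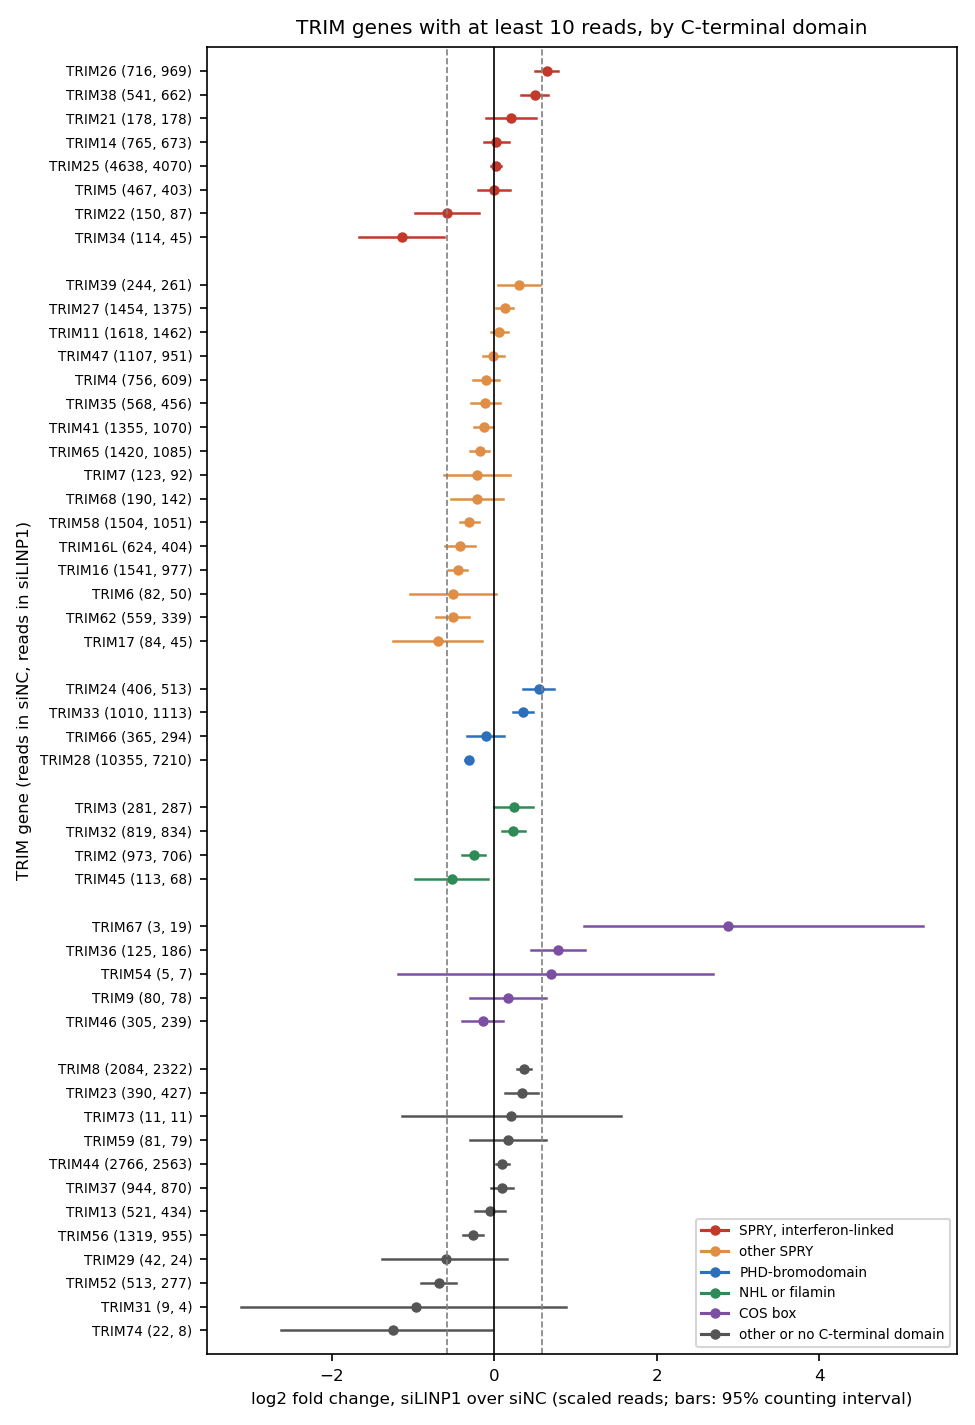
Log2 fold change of siLINP1 over siNC (horizontal axis) for the 49 TRIM genes with at least 10 reads, grouped by C-terminal domain and labelled with the reads in siNC and siLINP1. Points are the scaled ratio, bars the 95% counting interval and dashed lines 1.5-fold, and TRIM67 (3 and 19 reads) and TRIM34 (114 and 45 reads) are the genes whose whole bar lies past a dashed line.

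Levels of the family spanned several orders of magnitude and no rank moved by more than 10 places between the libraries. TRIM28, the corepressor KAP1 that KRAB zinc finger proteins bring to chromatin, was the highest member, with 186 RPKM (95% interval 182 to 189) in siNC and 158 RPKM (155 to 162) in siLINP1. It alone held 23.3% of the reads of the family in siNC and 19.5% in siLINP1. TRIM25, the ligase of the RNA sensor RIG-I, had 42.9 RPKM in siNC and 46.1 in siLINP1, and TRIM8, known from TNF and IL-1 signalling, had 40.0 and 54.5 RPKM. The intervals of TRIM25 and TRIM8 overlapped in siNC, where TRIM25 ranked above TRIM8, and did not in siLINP1, where TRIM8 ranked above TRIM25. TRIM11 followed with 31.9 and 35.3 RPKM and TRIM27 with 26.0 and 30.1 RPKM.
At or above 10 RPKM were 17 members in each library, and 7 members in siNC and 8 in siLINP1 were under 1 RPKM. The median level was 5.38 RPKM in siNC and 6.26 in siLINP1, beside 7.16 and 7.89 RPKM for protein-coding genes with at least 10 reads. Of the 48 pairs of neighbours in the order of levels, the counting intervals were apart for 9 in siNC and 8 in siLINP1, so most neighbours did not differ beyond counting error. The family held 0.236% of all counted reads in siNC and 0.241% in siLINP1.

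**Figure D2:**
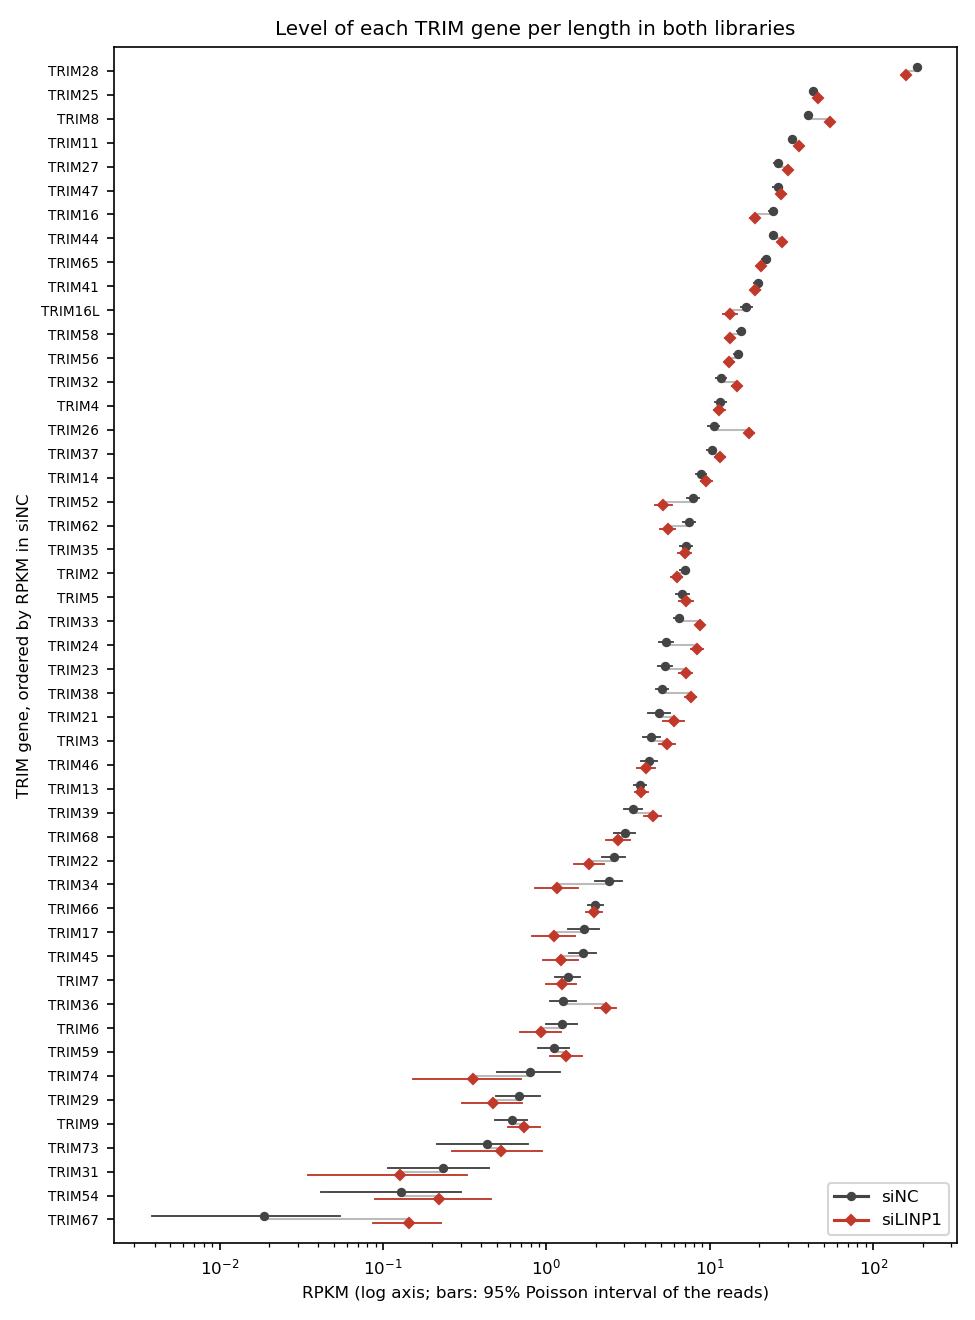
Level of the 49 TRIM genes in RPKM (horizontal axis, log scale) in siNC (circles) and siLINP1 (diamonds), ordered by siNC, with 95% Poisson intervals of the reads as bars. TRIM28 stands above all others at 186 and 158 RPKM, and TRIM67 lies lowest in siNC at 0.019 RPKM.

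The 8 interferon-linked SPRY members were split in direction. TRIM26, which acts on adaptors of antiviral signalling and lies in the major histocompatibility complex on chromosome 6 (30152232 to 30181271 of hg19, minus strand), was read 716 times in siNC and 969 times in siLINP1, which gave a log2 ratio of 0.65 (95% interval 0.51 to 0.79). TRIM38, which restrains signalling through the TAB2 and TAB3 adaptors, had 541 and 662 reads (0.50, 95% interval 0.33 to 0.67). Both were higher in siLINP1, and their scaled ratios were 1.56 and 1.41.
TRIM34 and TRIM22, which lie on chromosome 11 on either side of TRIM5, were lower. TRIM34 (5641174 to 5665628 of hg19, plus strand) was read 114 times in siNC and 45 times in siLINP1, which gave a log2 ratio of -1.13 (95% interval -1.66 to -0.62). TRIM22, an antiviral factor that interferon induces strongly in many cells, had 150 and 87 reads (-0.58, 95% interval -0.97 to -0.19). With scaling by the total count the interval of TRIM34 ran from -1.58 to -0.54, so that it no longer lay wholly past 1.5-fold.
TRIM34 overlaps the read-through gene TRIM6-TRIM34 on the same strand, which had 124 and 55 reads, and TRIM6, a paralog upstream, had 82 and 50 reads. How reads common to these genes were assigned is not given in the sources used here. The 3 together counted 320 reads in siNC against 150 in siLINP1, or -0.88 on the log2 scale (95% interval -1.17 to -0.60).
The other members of this group stayed near no change. TRIM25 had 4638 and 4070 reads, and its narrow interval, from -0.04 to 0.08 on the log2 scale, held no change, while with the total count it ran from 0.04 to 0.16 and left it out. TRIM5, which binds retroviral capsids, had 467 and 403 reads, and TRIM14, which lacks the RING finger and binds the adaptor MAVS, had 765 and 673 reads. TRIM21, the cytosolic antibody receptor, had 178 reads in each library, or 0.21 on the log2 scale after scaling (95% interval -0.10 to 0.52). TRIM69, the remaining gene of the list, had 2 reads in siNC and 0 in siLINP1. The median of the 8 genes was 0.02, with 1 higher and 1 lower gene past 1.5-fold. Among protein-coding genes 10.9% were higher and 10.5% lower past 1.5-fold, so these counts were near the background.

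Genes of antiviral signalling, among them sensors and adaptors that TRIM ligases act on, were read in the same libraries. The list of 14 also holds kinases such as TBK1 and transcription factors such as IRF3. The whole interval lay past 1.5-fold for 3 higher genes and 1 lower gene, beside 4.13% and 2.34% of protein-coding genes. The median of the 14 was 0.08. DDX58, which encodes RIG-I, the target of TRIM25, was read 384 times in siNC and 1175 times in siLINP1 (log2 1.82, 95% interval 1.66 to 1.99). IFIH1, which encodes MDA5, the target of TRIM65, had 249 and 1466 reads (2.77, 95% interval 2.57 to 2.97). TRAF3 had 656 and 1055 reads (0.89, 95% interval 0.75 to 1.04).
TMEM173, which encodes the DNA signalling adaptor STING, was lower, with 1213 reads against 588 (-0.84, 95% interval -0.98 to -0.69). TRIM25, TRIM65 and TRIM56, the ligases named here with DDX58, IFIH1 and TMEM173, lay within 1.5-fold. Of the members named above with other adaptors, TRIM26 lay above 1.5-fold (0.65), and TRIM38 (0.50) and TRIM14 (0.02) lay within it. TRIM65 had 1420 and 1085 reads (-0.18, 95% interval -0.29 to -0.06, or -0.21 to 0.02 with the total count, which holds no change) and TRIM56, a regulator of STING, had 1319 and 955 reads (-0.26, 95% interval -0.38 to -0.14).

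**Figure D3:**
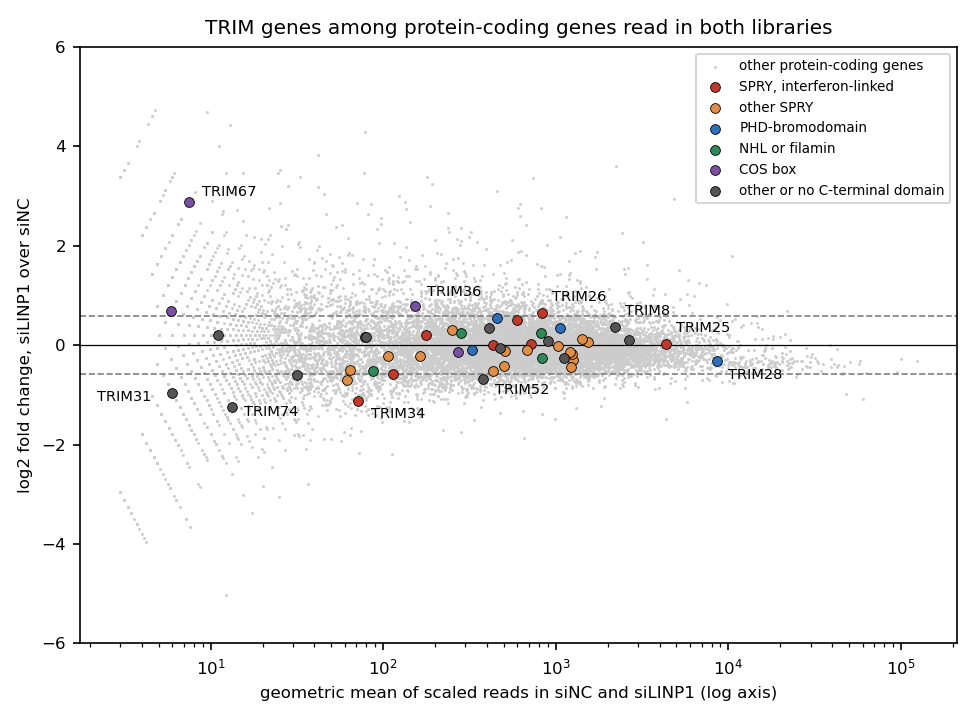
Log2 fold change of siLINP1 over siNC (vertical axis) against the geometric mean of the scaled reads (horizontal axis, log scale) for TRIM genes, coloured by C-terminal domain, and for the other protein-coding genes with at least 10 reads and a read in both libraries (grey). The TRIM genes past 1.5-fold (dashed lines) lie mostly at low read numbers, such as TRIM67 with 22 reads in sum, while TRIM28, with 17565 reads, lies at -0.31.

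Of the 16 other SPRY members, 13 were below 0 and 3 above it, beside 7688 below and 6587 above among the 14275 protein-coding genes. The interval left out no change for 7 lower genes and 2 higher genes, beside 31.2% and 26.3% of protein-coding genes, and the difference from these was not tested. The median was -0.19, and it was -0.17 with TMM factors and -0.11 with the total count. TRIM47, at -0.01, turned above 0 under both. Only TRIM17, a ligase known from neurons, was past 1.5-fold, with 84 and 45 reads (-0.69, 95% interval -1.25 to -0.15). Of protein-coding genes, 10.9% lay above 1.5-fold and 10.5% below it.
TRIM62 was read 559 and 339 times (-0.51, 95% interval -0.71 to -0.31). TRIM16, which takes part in the autophagy of damaged lysosomes, had 1541 and 977 reads, and TRIM16L, a near-identical copy with which it can share reads, had 624 and 404. Their sum gave a log2 fold change of -0.44 (95% interval -0.54 to -0.34). TRIM58, known from late red cell development, had 1504 and 1051 reads (-0.31, 95% interval -0.42 to -0.19). These well-read genes were thus lower by an amount that counting error did not cover and that was under 1.5-fold.
TRIM41 had 1355 and 1070 reads (-0.13, 95% interval -0.25 to -0.01), and its interval held no change with TMM factors (-0.22 to 0.01) and with the total count (-0.17 to 0.07). For TRIM6, TRIM68, TRIM7, TRIM35, TRIM4 and TRIM47 on the lower side and TRIM11 on the higher side the interval held no change, although with the total count that of TRIM11 left it out (0.04 to 0.25). The higher genes TRIM39 and TRIM27 had log2 fold changes of 0.31 (244 and 261 reads) and 0.13 (1454 and 1375 reads). TRIM39 overlaps the read-through gene TRIM39-RPP21, and on the opposite strand the noncoding gene HCG18 (445 and 500 reads), and the reads of TRIM39 and TRIM39-RPP21 together were 483 and 454 (0.12, 95% interval -0.07 to 0.31).

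The PHD and bromodomain members, which act as transcriptional cofactors, split by gene. TRIM28 was read 10355 times in siNC and 7210 times in siLINP1, or -0.31 on the log2 scale (95% interval -0.36 to -0.27). TRIM24, a cofactor of nuclear receptors, had 406 and 513 reads (0.55, 95% interval 0.36 to 0.74), and TRIM33, which acts in TGF-beta and SMAD signalling, had 1010 and 1113 reads (0.35, 95% interval 0.23 to 0.47). TRIM24 and TRIM33 were thus higher and TRIM28 lower, while the interval of TRIM66 (365 and 294 reads) held no change.
Of 9 partners of TRIM28 in silencing, none was past 1.5-fold, beside 10.9% of protein-coding genes above it and 10.5% below. Among the 9, 5 were higher and 4 lower, and the median was 0.11. CBX3, a heterochromatin protein, had 3598 and 2383 reads (-0.38, 95% interval -0.46 to -0.31), and HDAC1 had 1722 and 2014 reads (0.44, 95% interval 0.34 to 0.53).

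Of the members with NHL or filamin repeats, TRIM2, a neuronal ligase, had 973 and 706 reads (-0.25, 95% interval -0.40 to -0.11) and TRIM32, mutated in a limb-girdle muscular dystrophy, had 819 and 834 reads (0.24, 95% interval 0.09 to 0.38). TRIM45 had 113 and 68 reads (-0.52, 95% interval -0.98 to -0.08), and the interval of TRIM3 (281 and 287 reads) just held no change. With the total count the interval of TRIM45 held no change (-0.90 to 0.01) and that of TRIM3 left it out (0.08 to 0.56). This group was thus divided between directions, and its 4 genes together had a log2 fold change of 0.003.

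The COS box members, which bind microtubules, held the highest log2 fold change of the 49 genes and also the least-read of them. TRIM67, known from neurons, was read 3 times in siNC and 19 times in siLINP1, a log2 ratio of 2.87 whose 95% interval ran from 1.11 to 5.27. A pseudocount of 5 moved this value to 1.71. TRIM36, which acts on microtubules, was read 125 and 186 times (0.78, 95% interval 0.45 to 1.12). TRIM36 was thus the higher member of this group that did not rest on a few reads.
TRIM54, a muscle ligase, had 5 and 7 reads, with an interval from -1.18 to 2.69. TRIM46, known from the axon initial segment, had 305 and 239 reads and TRIM9, known from brain, had 80 and 78 reads. The intervals of TRIM54, TRIM46 and TRIM9 held no change.

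Among the 12 members with another C-terminal domain or none, 4 lay below 1.5-fold and 0 above it, beside 10.5% and 10.9% of protein-coding genes. TRIM29, at -0.60, lay within 1.5-fold with TMM factors, the total count or a pseudocount of 1, which left 3. TRIM52, which has an extended RING finger, was the well-read gene among the 4, with 513 and 277 reads (-0.68, 95% interval -0.90 to -0.47). It overlaps a noncoding gene on the opposite strand, CTC-338M12.4, which had 284 and 188 reads. The other 3 were TRIM74 (22 and 8 reads), TRIM31 (9 and 4 reads) and TRIM29. TRIM74 and its near-identical copy TRIM73 (11 and 11 reads) together had a log2 fold change of -0.59, with an interval from -1.48 to 0.27 that held no change.
TRIM8 was read 2084 and 2322 times (0.37, 95% interval 0.28 to 0.45), and TRIM23, which carries a GTPase domain of the ARF type, had 390 and 427 reads (0.34, 95% interval 0.14 to 0.54). TRIM44, which lacks a RING finger, had 2766 and 2563 reads (0.10, 95% interval 0.02 to 0.18). These 3 genes were higher and TRIM56 was lower by less than 1.5-fold. For TRIM37, mutated in mulibrey nanism, and for TRIM13 and TRIM59, which are anchored in membranes, the interval held no change, although with the total count that of TRIM37 left it out (0.04 to 0.31).

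**Figure D4:**
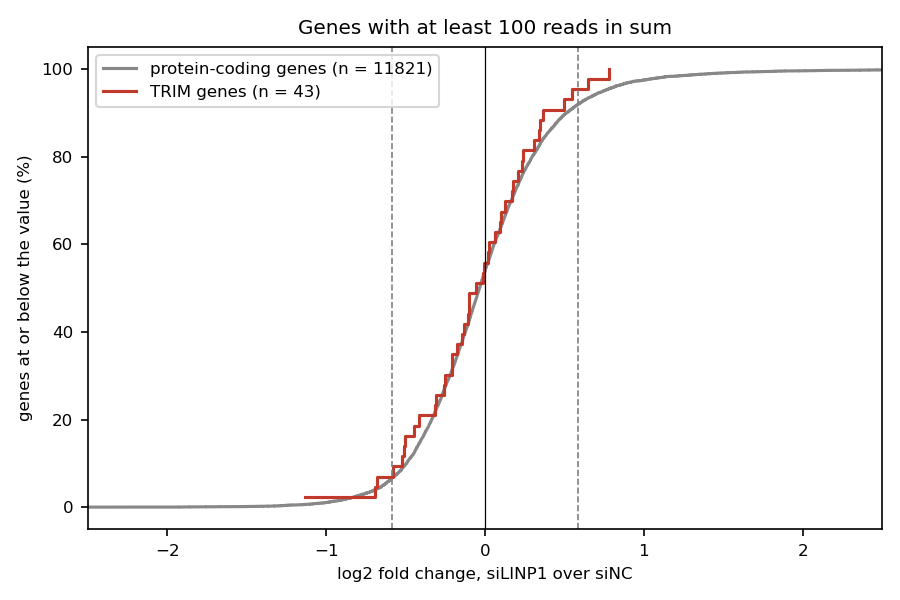
Cumulative share of genes (vertical axis, percent) at or below a log2 fold change of siLINP1 over siNC (horizontal axis) for the 43 TRIM genes and the 11821 protein-coding genes with at least 100 reads, with 1.5-fold as dashed lines. The curves lie close together, with medians of -0.05 and -0.03.

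By position, 7 named members lie between 4406127 and 6495689 on chromosome 11 of hg19. In this cluster TRIM3 and TRIM21 were above 0 and TRIM34, TRIM22, TRIM6, TRIM68 and TRIM5 below it, with a median of -0.21, and TRIM5, at -0.003, turned above 0 with TMM factors or the total count. On chromosome 6, TRIM38, TRIM27, TRIM26 and TRIM39 were above 0 and TRIM31, with 13 reads, below it. The 3 members between 180620924 and 180688119 on chromosome 5 (TRIM7, TRIM41 and TRIM52) were below 0, from -0.68 to -0.13. Of the 49 genes, 17 overlap the span of another gene with at least 10 reads, 5 of them on the same strand and 14 on the opposite strand, and the strand setting of the counting is not given in the sources used here.

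Of 7 family genes with other names, TRIML2 lay above 1.5-fold and TRIML1 below it, beside 10.9% and 10.5% of protein-coding genes. PML, the organiser of nuclear bodies, was read 3359 and 2212 times (-0.39, 95% interval -0.47 to -0.32), while MID1, a microtubule-bound ligase, had 1743 and 1717 reads (0.19, 95% interval 0.09 to 0.28). TRIML2 had 240 and 330 reads (0.67, 95% interval 0.42 to 0.91), and TRIML1 had 17 and 7 reads. The intervals of TRIML1, MID2, MEFV and CMYA5 held no change.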

How the data were processed

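Total RNA of 1 siNC and 1 siLINP1 library was sequenced. Per the paper's methods, Tophat2 alignments to GRCh37/hg19 were turned by the authors into gene counts with HTSeq, and the submitters' notes also name HISAT2 and Bowtie2. The values used are the raw read counts that the authors deposited and the deposited RPKM values, in which each count is taken per kilobase of gene and per 1000000 counted reads of its library. Another 12 columns of values were not used. Versions, annotation and strand setting are not given in the sources used here. Size factors by the median of ratios, taken over the whole table, were 1.08 for siNC and 0.930 for siLINP1. Genes with at least 10 reads in sum were kept. Intervals are 95% Clopper-Pearson intervals of the split of a gene's reads, or Poisson intervals for RPKM, and cover counting error only. Genes are not replicates, so medians over genes are given without an interval. In list medians a library at 0 reads was set to 3 reads. Alternatives were the total count, edgeR TMM factors, minimums of 1 and 100 reads and pseudocounts of 1 and 5. Members, lists and subfamilies were chosen with earlier results of these data known. Every member with at least 10 reads is named, and of the other lists the genes whose whole interval lies past 1.5-fold, with further list genes added after their values were seen. In simulated Poisson counts with known 4-fold changes, the interval held the true value for 95.9% of 194 changed and 19700 unchanged genes kept. Such draws hold counting error only, so this checks the calculation and not the spread between cultures. Of the 19700 unchanged genes, 1976 lay past 1.5-fold and 13 had the whole interval past it. Promoters, from a RefSeq table of GRCh38.p14, were matched by symbol for 37 of the 49 genes, and no coordinate was converted between builds. The tools were edgeR 4.0.16 in R 4.3.3 and, in Python 3.11.15, scipy 1.17.1, pandas 2.3.3, numpy 2.4.6 and matplotlib 3.10.9.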

Additional observations from a re-analysis of the deposited data

How the results depend on the processing

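No paired analysis was possible because each condition had 1 library and the result comes from no test. Leaving out a replicate was not possible for the same reason. TMM factors left each of the 49 fold changes inside its main interval, and so did a pseudocount of 5. Scaling by the total count, which raised every log2 value by 0.08, moved TRIM25 (0.10), TRIM28 (-0.23) and TRIM44 (0.18) out of their main intervals and turned TRIM5, TRIM13 and TRIM47 from below to above 0. With it the interval no longer left out no change for TRIM41, TRIM45, TRIM65 and TRIM74 and newly did so for TRIM3, TRIM11, TRIM25 and TRIM37, of which TRIM3 and TRIM41 also turned with TMM factors. It gave 2 higher members (TRIM67 and TRIM26) and 0 lower members with the whole interval past 1.5-fold, 1 higher PHD and bromodomain gene past 1.5-fold (TRIM24) and a median of 0.19 for the partners of TRIM28. A minimum of 100 reads, which tests fewer genes, left 2 higher and 3 lower members past 1.5-fold, 0 higher members with the whole interval past it, 1 higher COS box gene, 1 lower gene among those with another or no C-terminal domain and 0 lower family genes with other names. With a pseudocount of 5, 2 lower genes with another or no C-terminal domain were past 1.5-fold. TRIM34, TRIM16L, TRIM73 and TRIM74, which can share reads, were also left out, a choice made after the data were seen. Then 0 lower members had the whole interval past 1.5-fold, which follows from leaving out TRIM34, the only such member. Depth limits the least-read genes most: the interval of TRIM54, with 12 reads, ran from -1.18 to 2.69.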

Other observations

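The ubiquitin, E1 and E2 genes on which TRIM ligases depend had a median log2 fold change of -0.13 over 18 genes. Of these, 0 had the whole interval past 1.5-fold, beside 4.13% higher and 2.34% lower among protein-coding genes. UBB, which encodes ubiquitin, had 11535 and 9070 reads (-0.14, 95% interval -0.18 to -0.10).

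The E2 enzymes of the UBE2D family, which work with many TRIM RING fingers, differed among themselves in direction. UBE2D1 had 197 and 267 reads (0.65, 95% interval 0.38 to 0.92) and UBE2D4 had 404 and 197 reads (-0.83, 95% interval -1.08 to -0.58). UBE2D3, the best-read of them, had 4061 and 3576 reads (0.03, 95% interval -0.04 to 0.09). UBE2N, which with UBE2V1 builds chains used in immune signalling, had 1494 and 1354 reads (0.07, 95% interval -0.04 to 0.17). UBE2V1 itself was lower, with 3660 and 2686 reads (-0.24, 95% interval -0.31 to -0.16). Scaling by the total count raises each of these log2 values by 0.08.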
